A study of Mus musculus with 16 samples.

Results

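The comparison described here is the interaction of strain and oxygen in the mouse retina, that is, whether high oxygen shifted each gene by the same amount in C57 and in BALBc mice. It was computed gene by gene as the BALBc response (hyperoxia minus normoxia) minus the C57 response, on log2(FPKM + 0.5), where FPKM is a count of fragments scaled to gene length and library size. It used all 16 of the 16 libraries of the series and the 14953 of 54532 genes that reached 1 FPKM in 4 or more libraries. The retinas were those of mice at day 12 after birth. C57 normoxia and BALBc normoxia mice stayed in room air, and C57 hyperoxia and BALBc hyperoxia mice were in 75% oxygen from day 7, with 4 libraries in each of the 4 groups. The design sets a strain resistant to oxygen-induced retinopathy beside a susceptible one to look for metabolic differences that protect; the labels used here do not say which strain is which. No genetic change, drug or other agent is named for any group, and the labels do not say that each library is a separate animal, so p-values reflect only how much these libraries vary, which may be technical. A negative interaction means that the change with oxygen was lower in BALBc than in C57, and a positive one that it was higher.

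Oxygen-induced retinopathy is a model of retinopathy of prematurity. High oxygen lowers the signals for vessel growth, chiefly VEGF made under the control of hypoxia-inducible factors, and the capillaries of the young retina regress. The neurons and Müller glia, the main supporting glia of the retina, then adjust their use of glucose, lactate and lipids, and inbred strains differ in how far vessels are lost and regrow.

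Each library held 16.7 M to 29.7 M recovered reads (M, mega), and libraries of one group correlated across genes at Pearson r between 0.937 and 0.979. The libraries varied in ways the groups do not explain. Summed FPKM over all genes ran from 219639 to 341844, the latter in BALBc hyperoxia replicate 2. The library size implied by the FPKM values was not the sum of recovered reads. Recovered reads were from 0.884 times that size in C57 normoxia replicate 1 to 1.15 times in BALBc hyperoxia replicate 2. Rod genes were abundant in every library, but Gnat1, the rod transducin subunit, was at 612, 476, 2924 and 2223 FPKM across C57 normoxia replicates 1 to 4 and 608, 2575, 2804 and 1095 across those of BALBc hyperoxia, against 1051 to 1176 in C57 hyperoxia and 2275 to 2964 in BALBc normoxia. Crystallin and other lens genes, markers of tissue outside the retina, had mean log2(FPKM + 0.5) values from -0.25 to 8.37 within the C57 hyperoxia group alone. Xist is the X-inactivation transcript, and Ddx3y lies on the Y chromosome. By these, each C57 hyperoxia library was on the female side and C57 normoxia replicates 1 to 3 on the male side. C57 normoxia replicate 4 held both transcripts (60.7 FPKM of Xist and 3.55 of Ddx3y). So did BALBc hyperoxia replicate 3 (45.6 and 1.61) and, with less Ddx3y, BALBc normoxia replicate 3 (122 and 0.755). Each BALBc group held libraries on both sides. Sex and oxygen therefore cannot be fully told apart in C57, and counts that moved with a sex covariate are given with that value for the lists described. That covariate nearly follows oxygen in C57, so a count that falls with it does not tell a smaller change from a less certain one. In whole retina, fewer cells of a type and less RNA per cell cannot be told apart.

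No gene passed the threshold for the interaction. With limma, 0 of 14953 genes had an adjusted p under 0.05 (0%), and the smallest adjusted p was 0.245. At an unadjusted p under 0.05 there were 1430 genes, of which 711 were higher in BALBc (4.75% of genes tested) and 719 lower (4.81%). The count at an adjusted p under 0.05 was also 0 with voom on the recovered reads, which gave 1462 genes at the unadjusted level. With a sex covariate it was 0 again, with 795 at the unadjusted level. Without BALBc hyperoxia replicate 3 there was 1 gene, Hba-a2. Other processing did give calls, up to 3473 genes with estimated library weights, and these values stand in the section on processing. The genes and gene groups described for the interaction therefore did not pass the test over all genes.

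Within each strain some genes did pass. The C57 response had 50 genes at an adjusted p under 0.05 (0.334% of genes tested), 16 higher and 34 lower in hyperoxia. The BALBc response had 24 (0.161%), 13 higher and 11 lower. None of the genes was called in both strains. That the calls fell on different genes does not show that the responses differ, and the direct values were these. Of the 50 genes called in C57, 40 had the same sign in BALBc, with a median of 0.17 on the log2 scale in the C57 direction against 0.74 in C57 itself. Of the 24 called in BALBc, 21 had the same sign in C57, with a median of 0.25 against 0.81. The genes were chosen by their change in one strain, which makes the change there look larger than in the other strain. Across all tested genes 56.1% had the same sign in both strains, and the responses correlated at Pearson r = 0.196 and Spearman rho = 0.182. Those coefficients are across genes, which are not independent replicates, and the strains' responses share no library. With the sex covariate the C57 count was 0 and the BALBc count 39. Leaving out 1 library at a time gave between 0 and 85 genes in C57 and between 1 and 284 in BALBc, so both counts rest on single libraries.

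**Figure D1:**
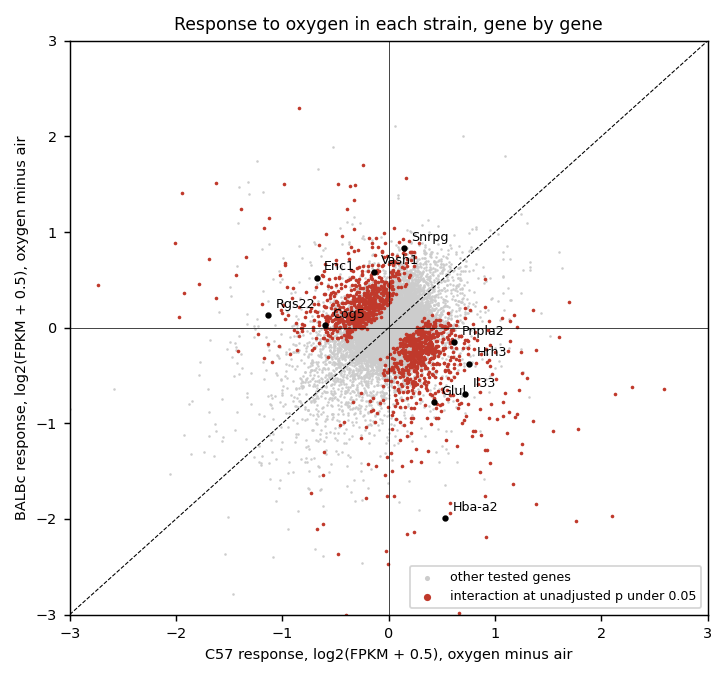
Response to oxygen of each tested gene in C57 (horizontal axis) and BALBc (vertical axis), as log2(FPKM + 0.5) in hyperoxia minus normoxia, with the dashed line marking equal responses; 5 genes lie outside the axes. The 1430 genes at an unadjusted interaction p under 0.05 (red) lie mostly in the quadrants of opposite sign, since 1199 of them had opposite signs in the strains, which choosing genes by the difference favours.

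Genes chosen by a difference between the strains are more likely to have opposite signs, so the signs of the 1430 genes are a description. Of these, 1199 had opposite signs, 625 of them higher with oxygen in C57 and lower in BALBc and 574 the reverse. Another 114 had the same sign with the larger change in BALBc, and 117 the same sign with the larger change in C57. A stricter description asks that the hyperoxia and normoxia libraries of a strain not overlap at all. In 18 genes (0.12% of genes tested) the groups were apart in both strains and in opposite directions, 9 each way. In 114 genes (0.762%) they were apart in both strains in the same direction, 53 higher and 61 lower with oxygen.

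The 12 protein-coding genes of smallest p on the negative side were higher with oxygen in C57 and lower in BALBc, a pattern that choosing genes by the difference between the strains favours, so it is given as a description. Pnpla2 (GRCm38 chromosome 7, 141455198 to 141460743, plus strand) encodes adipose triglyceride lipase, the enzyme that starts the breakdown of stored triglyceride. In C57, Pnpla2 was at 3.44, 3.33, 3.57 and 3.74 FPKM in normoxia and 6.16, 6.65, 5.31 and 4.68 in hyperoxia, and in BALBc at 3.65, 3.63, 3.35 and 3.38 and 3.2, 2.65, 3.02 and 3.61. All 4 C57 hyperoxia libraries lay above every other library, and the BALBc groups overlapped. The gene rose in C57 by 0.61 (log2, SE 0.11, adjusted p = 0.0404), its BALBc difference was -0.15 (log2, SE 0.11, adjusted p = 0.559), and the interaction was -0.76 (log2, SE 0.15, adjusted p = 0.245).

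Cdan1 (chromosome 2, 120716154 to 120850128, minus strand) encodes codanin-1, whose human gene is mutated in a congenital anaemia, and it had the smallest p of the named genes. The C57 values of Cdan1 were 2.6, 3.34, 2.76 and 2.72 FPKM in normoxia and 5.48, 5.42, 4.03 and 4.03 in hyperoxia, and the BALBc values 4.87, 4.3, 4.85 and 4.85 and 3.81, 3.14, 3.54 and 4.17. The groups were apart in both strains, in opposite directions. It rose in C57 by 0.64 (log2, SE 0.12, adjusted p = 0.0454), the BALBc difference was -0.33 (log2, SE 0.12, adjusted p = 0.213), and the interaction was -0.97 (log2, SE 0.17, adjusted p = 0.245). A gene on the opposite strand, Stard9, overlaps it, and without a stated strand setting their reads cannot be told apart. The same holds for 39 of the 116 named genes, which overlap a gene on the other strand.

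Hrh3 (chromosome 2, 180099465 to 180104488, minus strand), the histamine H3 receptor, a presynaptic autoreceptor, followed the same pattern. Normoxia and hyperoxia FPKM of Hrh3 were 2.68, 2.13, 2.34 and 2.46 and then 6.04, 5.19, 3.54 and 3.33 in C57, and 3.06, 3.01, 3.35 and 3.5 and then 2.23, 2.05, 2.62 and 2.62 in BALBc. Here too the groups were apart in both strains. The C57 rise was 0.76 (log2, SE 0.15, adjusted p = 0.048), the BALBc difference -0.38 (log2, SE 0.15, adjusted p = 0.281) and the interaction -1.13 (log2, SE 0.21, adjusted p = 0.245); an antisense gene overlaps the locus.

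Several glial genes stood in the same set. Il33 encodes an alarmin cytokine that Müller glia make. For Il33, the C57 libraries held 5.96, 5.99, 7.34 and 7.84 FPKM in normoxia and 14.8, 16.5, 8.29 and 8.25 in hyperoxia, and the BALBc libraries 4.86, 6.4, 5.22 and 7.62 and 2.83, 3.57, 3.88 and 3.7. C57 hyperoxia replicates 1 and 2 were the highest of all libraries, replicates 3 and 4 lay just above the normoxia range, and all 4 BALBc hyperoxia libraries were the lowest. The interaction was -1.41 (log2, SE 0.29, adjusted p = 0.245), with neither strain's own response past the threshold (adjusted p = 0.144 in C57 and 0.146 in BALBc). Dkk3, a secreted Dickkopf-family protein that Müller glia express, was at 108, 106, 107 and 133 FPKM in C57 normoxia and 197, 204, 139 and 139 in C57 hyperoxia, and at 100, 114, 98.6 and 123 in BALBc normoxia and 93.8, 80.1, 96.3 and 66.8 in BALBc hyperoxia. Its groups were apart in both strains, and the interaction was -0.94 (log2, SE 0.22, adjusted p = 0.25).

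Also among the 12 were Gramd2, Galnt18, Shisa8, Mier2, Ier5l and Hba-a2. Shisa8, an auxiliary protein of AMPA-type glutamate receptors, rose in C57 by 0.70 (log2, SE 0.14, adjusted p = 0.0466), with 7.94, 7.36, 8.07 and 9.48 FPKM in normoxia and 16.1, 14.9, 11.6 and 12.2 in hyperoxia. In BALBc it was 8.59, 9.77, 7.38 and 7.82 in normoxia and 8.5, 7.71, 7.34 and 5.43 in hyperoxia, which overlap. Mier2, a chromatin corepressor component, was at 23.2, 22.6, 23.4 and 24.2 and 34.4, 29.7, 24.7 and 29.8 FPKM in C57 normoxia and hyperoxia, and 29.5, 27.9, 31 and 29.6 and 25.1, 23.4, 24.8 and 27 in BALBc. Its groups were apart in both strains, with an interaction of -0.56 (log2, SE 0.12, adjusted p = 0.25). Over the 12 genes the interaction ran from 0.56 to 2.52 in size and the adjusted p from 0.245 to 0.25. Of the 12, 4 were called in C57 and 0 in BALBc, against 0.334% and 0.161% of all tested genes. The groups were apart in 8 of the 12 in C57 and in 8 in BALBc. Over all 14953 tested genes they were apart in 1141 in C57 and in 1319 in BALBc. Choosing genes by the difference between the strains favours groups that are apart, so these counts are a description.

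On the positive side, 10 of the 12 genes of smallest p had opposite signs, 4 were called in C57 and 3 in BALBc. Over all tested genes 56.1% had the same sign, and 0.334% were called in C57 and 0.161% in BALBc. Choosing genes by the difference between the strains favours such counts here too, so they are a description. Vash1 (chromosome 12, 86678700 to 86692091, plus strand) encodes vasohibin-1, a tubulin carboxypeptidase known as an inhibitor of angiogenesis made by endothelium. Vash1 FPKM was 36, 41.1, 43.7 and 38.8 in C57 normoxia and 38, 31.4, 36 and 39.2 in C57 hyperoxia, against 35.4, 31.4, 31.4 and 27.6 in BALBc normoxia and 42.8, 51.8, 42.5 and 52.9 in BALBc hyperoxia. The 4 BALBc hyperoxia libraries were above all BALBc normoxia libraries, and the C57 groups overlapped. Vash1 rose in BALBc by 0.59 (log2, SE 0.11, adjusted p = 0.0394), its C57 difference was -0.14 (log2, SE 0.11, adjusted p = 0.61), and the interaction was 0.73 (log2, SE 0.15, adjusted p = 0.245).

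Cdkn2d, the cell cycle inhibitor p19 of the INK4 family, and Snrpg, a core protein of spliceosomal small nuclear ribonucleoproteins, were the other genes of this set called in BALBc. In C57, Cdkn2d was at 22, 16.7, 17 and 17.8 FPKM in normoxia and 17, 14.8, 17.2 and 18.8 in hyperoxia, and in BALBc at 13.6, 14, 12.2 and 10.7 and 18.3, 19.8, 20.1 and 19.1. The C57 values of Snrpg were 12.3, 12.8, 14.2 and 12 FPKM in normoxia and 11.9, 12.7, 15.1 and 17.9 in hyperoxia, and the BALBc values 10.3, 12.5, 10.8 and 10.4 and 17.9, 20.9, 20.6 and 20.4. In both genes the BALBc groups were apart and the C57 groups overlapped. Cdkn2d rose in BALBc by 0.60 (log2, SE 0.10, adjusted p = 0.0362) with an interaction of 0.71 (log2, SE 0.15, adjusted p = 0.245), and Snrpg rose by 0.83 (log2, SE 0.11, adjusted p = 0.00854) with an interaction of 0.69 (log2, SE 0.16, adjusted p = 0.25). An antisense gene model overlaps Snrpg.

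The 4 called in C57 fell there, while none passed the test in BALBc, where their changes lay between -0.03 and 0.13 (log2). Cog5 (chromosome 12, 31654869 to 31937630, plus strand) is a subunit of a Golgi tethering complex. Normoxia and hyperoxia FPKM of Cog5 were 9.38, 9.01, 8.89 and 8.12 and then 5.09, 5.33, 6.1 and 6.23 in C57, and 9.61, 9.8, 9.81 and 8.18 and then 8.55, 10.2, 9.45 and 9.98 in BALBc. C57 hyperoxia lay below every other library. The C57 change was -0.60 (log2, SE 0.09, adjusted p = 0.0234), the BALBc difference 0.03 (log2, SE 0.09, adjusted p = 0.918) and the interaction 0.63 (log2, SE 0.13, adjusted p = 0.245); 3 genes lie antisense to it. Rgs22, a regulator of G-protein signalling, changed in C57 by -1.13 (log2, SE 0.18, adjusted p = 0.0246). For Rgs22, the C57 libraries held 4.2, 4.88, 3.07 and 3.36 FPKM in normoxia and 1.05, 1.18, 1.96 and 1.85 in hyperoxia, and the BALBc libraries 3.24, 2.97, 3.46 and 3.43 and 4.07, 3.22, 2.73 and 4.75. Again only the C57 groups were apart, and the interaction was 1.26 (log2, SE 0.26, adjusted p = 0.245). Cerkl, a ceramide kinase-like gene mutated in human retinal dystrophy, changed in C57 by -0.81 (log2, SE 0.13, adjusted p = 0.0246), from 11.6, 12.4, 11.4 and 10.8 FPKM to 6.63, 8.22, 5.58 and 5.32. Its BALBc groups overlapped, in normoxia (38.6, 34.3, 38.3 and 36.5) and in hyperoxia (27.8, 38.9, 36.7 and 42.2), and all 8 of those libraries exceeded all 8 of C57. Ccdc167 changed in C57 by -0.58 (log2, SE 0.11, adjusted p = 0.0454).

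Enc1 and Exoc2 were apart in both strains, lower with oxygen in C57 and higher in BALBc. Enc1 encodes an actin-binding protein of neurons. Enc1 FPKM was 6.17, 6.63, 6.18 and 6.45 in C57 normoxia and 2.93, 2.23, 5.5 and 5.53 in C57 hyperoxia, against 2.67, 2.76, 2.28 and 2.04 in BALBc normoxia and 4.07, 4.1, 3.3 and 3.4 in BALBc hyperoxia. C57 hyperoxia replicates 1 and 2 lay well below replicates 3 and 4, and the interaction was 1.20 (log2, SE 0.29, adjusted p = 0.25). Exoc2, an exocyst subunit, had an interaction of 0.43 (log2, SE 0.10, adjusted p = 0.25). B9d1, a ciliary transition zone protein, Psmg4, a proteasome assembly chaperone, and Swi5, a recombination factor, were apart in BALBc only, with interactions of 0.70, 0.73 and 0.43. Antisense gene models overlap 6 of these 12 genes and 3 of the 12 on the negative side.

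**Figure D2:**
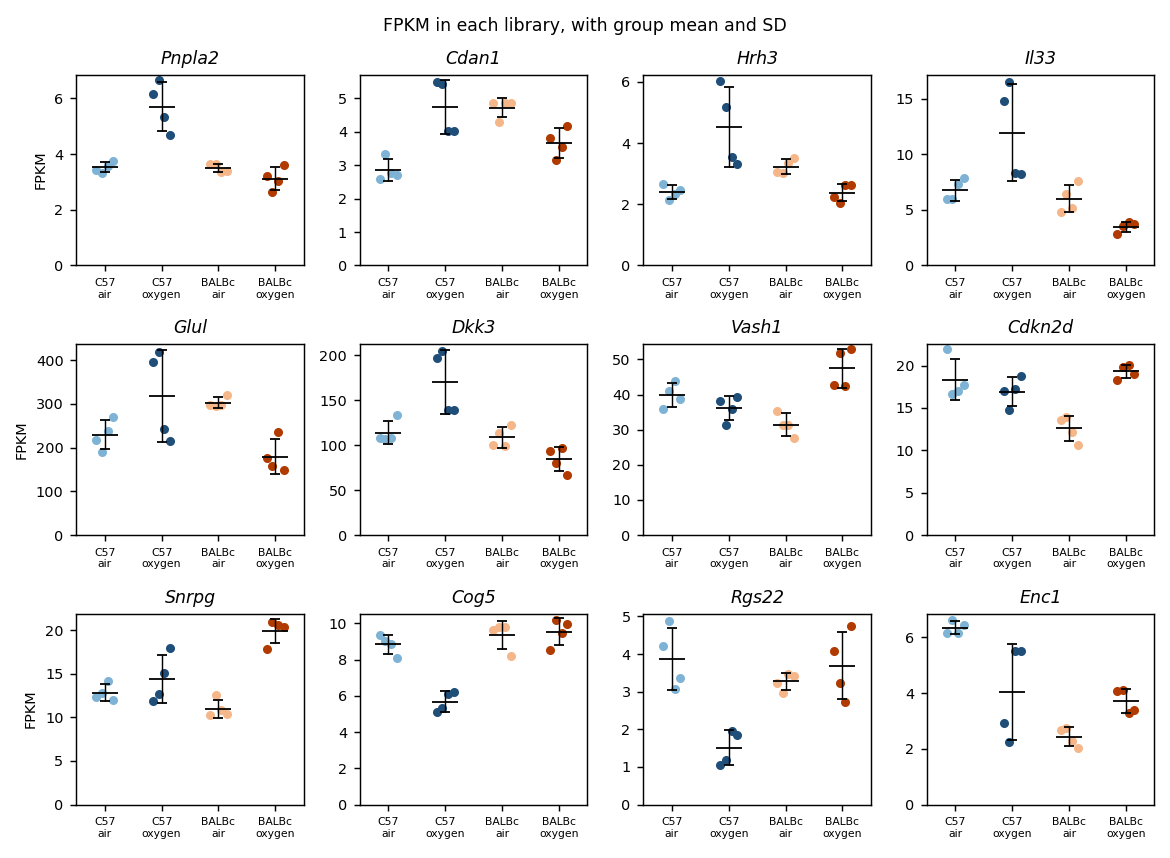
FPKM of 12 genes in each library (points), with the group mean and SD (n = 4) as black marks, for C57 and BALBc mice in room air or in 75% oxygen. Pnpla2 in C57 hyperoxia lies between 4.68 and 6.65, above all other libraries, and Snrpg in BALBc hyperoxia between 17.9 and 20.9.

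The genes of the body clock formed the list with the largest share at the unadjusted level among lists of 10 or more tested genes. Clock proteins drive each other in a loop, in which CLOCK and BMAL1 bind E-box sequences and switch on Per, Cry, Nr1d and the PAR-domain factors Dbp, Tef and Hlf. Of 18 tested clock genes 8 were at an unadjusted p under 0.05, all negative, against 4.81% of all genes, and 0 passed the adjusted threshold. Their median interaction was -0.42, with a median response of 0.37 in C57 and -0.06 in BALBc, where the median interaction over all genes was 0.00062. The 8 were Hlf, Per2, Tef, Bhlhe40, Per3, Nr1d1, Ciart and Per1. Hlf, Per2 and Tef were named by the rule for named genes, and the other 5 after their values were seen, to complete the count. Clock genes vary with the hour of the day. The hour of collection is not among the sample details used here, so its part in the values of this list was not tested.

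Promoters of 3 of these genes are shown because they hold the E-box and their genes are among those 8. Each runs from 250 bases before to 50 after a transcription start in RefSeq (GRCm38.p6), 5′ to 3′ on the gene's strand, with the E-box CACGTG in capitals.
Tef, chr15:81802423-81802722 (+): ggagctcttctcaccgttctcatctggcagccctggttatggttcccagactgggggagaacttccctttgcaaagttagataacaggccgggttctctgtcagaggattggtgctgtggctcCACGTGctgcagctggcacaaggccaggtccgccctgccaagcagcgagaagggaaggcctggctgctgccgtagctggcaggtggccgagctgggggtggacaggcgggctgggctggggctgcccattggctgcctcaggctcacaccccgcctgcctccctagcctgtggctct
Per1, chr11:69098699-69098998 (+): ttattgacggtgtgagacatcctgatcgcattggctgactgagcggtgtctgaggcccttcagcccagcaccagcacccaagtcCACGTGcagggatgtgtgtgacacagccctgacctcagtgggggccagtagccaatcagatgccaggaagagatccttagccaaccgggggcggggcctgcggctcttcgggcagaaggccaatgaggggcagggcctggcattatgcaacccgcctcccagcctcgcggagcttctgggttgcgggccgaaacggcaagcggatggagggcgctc
Ciart, chr3:95882179-95882478 (-): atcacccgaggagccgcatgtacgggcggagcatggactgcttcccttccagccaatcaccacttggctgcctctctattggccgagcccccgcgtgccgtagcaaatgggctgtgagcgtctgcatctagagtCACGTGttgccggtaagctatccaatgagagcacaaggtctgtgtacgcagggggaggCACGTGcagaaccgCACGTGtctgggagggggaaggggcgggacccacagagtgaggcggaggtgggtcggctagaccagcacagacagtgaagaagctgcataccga
The E-box reads the same on both strands. It was present in 6 of 21 windows of the 15 clock genes with an entry, in 4 of the 8 windows of the 6 genes with an entry among the 8 above, and in 7.15% of all 32851 windows. A match is a description of these letters and shows no binding.

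Hlf, a PAR-domain activator, showed the pattern in FPKM as follows. In C57, Hlf was at 8.16, 9.2, 11.1 and 12.1 FPKM in normoxia and 17.8, 19.3, 12.1 and 11.9 in hyperoxia, and in BALBc at 13.5, 15.3, 14 and 17 and 9.63, 11.6, 13.2 and 7.21. BALBc hyperoxia lay below BALBc normoxia, and C57 hyperoxia replicates 1 and 2 were the highest libraries. The interaction was -1.08 (log2, SE 0.27, adjusted p = 0.25). Tef, which holds 1 E-box above, was higher in all C57 hyperoxia libraries than in any other library. The C57 values of Tef were 25.5, 28.8, 28.1 and 29.1 FPKM in normoxia and 38.5, 39.2, 32.2 and 35.6 in hyperoxia, and the BALBc values 26.8, 26.9, 24.5 and 28.2 and 27.4, 23.7, 25.5 and 26.2. Its BALBc groups overlapped, and the interaction was -0.43 (log2, SE 0.11, adjusted p = 0.279). Per2, a repressor of the loop, had an interaction of -1.01 (log2, SE 0.25, adjusted p = 0.254), and Bhlhe40, another repressor, -0.91 (log2, SE 0.26, adjusted p = 0.307). Normoxia and hyperoxia FPKM of Bhlhe40 were 2.19, 2.27, 2.9 and 4.28 and then 4.87, 5.22, 5.93 and 5.24 in C57, and 3.99, 4.43, 3.35 and 4.59 and then 4.48, 4.16, 4.08 and 2.54 in BALBc. Its C57 groups were apart and its BALBc groups were not. Arntl and Clock, which encode the activators themselves, had interactions of -0.04 and -0.12, neither at the unadjusted level. Per library, the mean log2(FPKM + 0.5) over the list was 3.22, 3.27, 3.41 and 3.42 in C57 normoxia, 3.76, 3.76, 3.49 and 3.52 in C57 hyperoxia, 3.51, 3.45, 3.43 and 3.54 in BALBc normoxia and 3.39, 3.34, 3.42 and 3.35 in BALBc hyperoxia. C57 hyperoxia replicates 1 and 2 stood highest. The count of 8 became 6 with a sex covariate, 6 without the 2 C57 normoxia libraries low in rod genes, and 12 without the 5 libraries rich in lens genes; with single libraries left out it was 6 to 12.

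**Figure D3:**
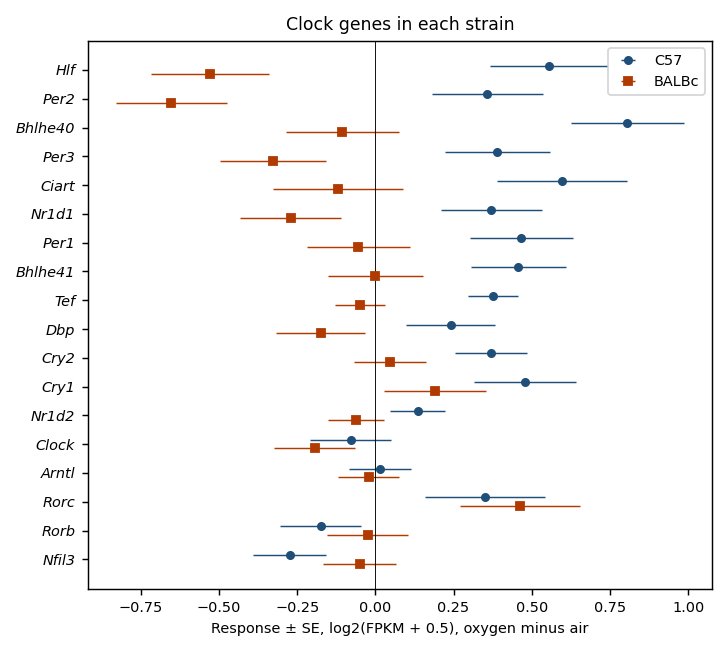
Response to oxygen of the 18 tested clock genes in C57 (circles) and BALBc (squares), as log2(FPKM + 0.5) in hyperoxia minus normoxia with SE, ordered by interaction. C57 lies to the right of BALBc in 15 genes, most widely in Hlf (0.55 against -0.53).

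Glial lists had negative medians. Of 19 Müller glia genes 4 were at the unadjusted level, all negative, against 4.81% of all genes, with median responses of 0.20 in C57 and -0.21 in BALBc. The count was 3 with a sex covariate and 8 without BALBc hyperoxia replicate 1. Without the lens-rich libraries it was 3 positive and 6 negative. Glul, glutamine synthetase, which clears glutamate in Müller glia, was among the 4. For Glul, the C57 libraries held 218, 191, 239 and 269 FPKM in normoxia and 396, 419, 242 and 215 in hyperoxia, and the BALBc libraries 298, 295, 298 and 321 and 177, 158, 236 and 148. BALBc hyperoxia lay below BALBc normoxia, while in C57 replicates 1 and 2 of hyperoxia were far above replicates 3 and 4, which overlapped normoxia. The interaction was -1.20 (log2, SE 0.29, adjusted p = 0.25). Aqp4, the water channel of glial endfeet, had an interaction of -1.09 (log2, SE 0.31, adjusted p = 0.317), with 13, 11.5, 13.9 and 15.5 FPKM in BALBc normoxia and 7.44, 5.72, 8.64 and 7.42 in BALBc hyperoxia. The gliosis and astrocyte list had 3 of 12 genes at that level, all negative, against 4.81% of all genes: Lcn2, Mt1 and Cp. That count was 2 with a sex covariate and 1 without C57 hyperoxia replicate 1 or 2, BALBc normoxia replicate 2 or BALBc hyperoxia replicate 4. Leaving out other single libraries gave up to 4. Lcn2, an iron-binding protein of reactive glia, rose in C57 by 1.06 (log2, SE 0.21, adjusted p = 0.0494), from 0.721, 0.771, 1.57 and 1.15 FPKM to 2.69, 3.08, 1.97 and 3.06. In BALBc it was 0.78, 1.17, 1.05 and 1.39 in normoxia and 0.751, 1.62, 1.52 and 1.04 in hyperoxia. Gfap, the intermediate filament of reactive glia, had an interaction of -0.46 (log2, SE 0.48, adjusted p = 0.795) and overlapped between groups in both strains; its sign turned under 3 settings, among them a sex covariate (0.14).

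Extracellular matrix and fibroblast genes had the most negative median of the larger lists, -0.65, and 16 of 17 were below 0. Over all genes the median interaction was 0.00062, and members of a list can vary together. These genes mark cells that whole retina can hold or be mixed with, and the part of such cells was not tested. At the unadjusted level were 6 of 17, all negative, against 4.81% of all genes. Efemp1, a fibulin, fell in BALBc, with a change of -0.90 (log2, SE 0.14, adjusted p = 0.0257). Efemp1 FPKM was 5.21, 4.81, 4.98 and 5.64 in C57 normoxia and 3.85, 5.4, 5.56 and 4.32 in C57 hyperoxia, against 4.6, 5.78, 5.25 and 5.6 in BALBc normoxia and 2.71, 1.82, 3.4 and 2.73 in BALBc hyperoxia. All BALBc hyperoxia libraries were below all others, and the interaction was -0.79 (log2, SE 0.20, adjusted p = 0.268). Fbln1, fibulin-1, varied widely within groups, from 0.8 to 11.5 FPKM in BALBc normoxia, and had an interaction of -3.22 (log2, SE 0.86, adjusted p = 0.279). With a sex covariate the count for the matrix list was 3 and its median -0.457, and with single libraries left out the count was 4 to 9. Erythroid genes had 3 of 6 at that level, all negative, against 4.81% of all genes, with a median of -1.41. The erythroid count was 1 and the median -0.89 with a sex covariate. The count was also 1 without C57 hyperoxia replicate 4, BALBc normoxia replicate 3 or BALBc hyperoxia replicate 4, and 5 without C57 hyperoxia replicate 1. Hba-a1 and Hba-a2 are near-identical alpha-globin genes, so the split of reads between them is uncertain. In C57, Hba-a1 was at 16, 11.5, 15 and 18.8 FPKM in normoxia and 9.46, 10.6, 16.9 and 29 in hyperoxia, and in BALBc at 15.7, 45.8, 84.6 and 52.9 and 13.9, 8.92, 27 and 6.36. BALBc normoxia replicates 2 to 4 were the highest libraries. Hba-a2 rested on 5 to 105 recovered reads per library, with an interaction of -2.52 (log2, SE 0.58, adjusted p = 0.25).

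Horizontal and amacrine cell genes had 5 of 20 at the unadjusted level, all negative, against 4.81% of all genes. Among them were Calb1, the calcium buffer of horizontal cells (-0.51), Gjd2, a neuronal gap junction protein (-0.27), and Gad2, a GABA-synthesising enzyme (-0.69). With a sex covariate the count was 0. It was 8 without BALBc hyperoxia replicate 1, 2 without C57 hyperoxia replicate 1 or 2, and 3 without C57 normoxia replicate 1 or 3, C57 hyperoxia replicate 3 or BALBc normoxia replicate 3. Bipolar genes had 1 positive and 2 negative of 19 (5.26% and 10.5%, against 4.75% and 4.81% of all genes), with a median of -0.23. Without BALBc hyperoxia replicate 1 the negative count was 8, and without C57 normoxia replicate 2 the positive count was 2. Without the lens-rich libraries 3 were positive and 4 negative, and the median turned to 0.22. Gng13, the gamma subunit in the ON bipolar cascade, rose in C57 by 0.74 (log2, SE 0.15, adjusted p = 0.0494), from 21.9, 12.9, 16.8 and 18.3 FPKM to 25.8, 30.5, 30.9 and 29.2, and was 27.2, 27.6, 21.4 and 28.5 and 25.9, 19.4, 28.6 and 22.5 in BALBc normoxia and hyperoxia. Its interaction was -0.86 (log2, SE 0.21, adjusted p = 0.25). Rod genes had 0 of 24 at that level and retinal ganglion cell genes 0 of 17. Cone genes had 2 of 14, both positive (Cngb3 0.51 and Gnb3 0.49), against 4.75% of all genes. The cone count was 0 with a sex covariate and 0 without C57 hyperoxia replicate 1 or 2. Leaving out any other single library gave 1 to 3. Without the lens-rich libraries cone genes had 4 positive and 6 negative with the median turned from 0.10 to -0.16, and rod genes 7 negative. Without the low-rod libraries rod genes had 6 positive. Without BALBc hyperoxia replicates 2 and 3, 9 retinal ganglion cell genes were negative at that level. Gnat1 had an interaction of -0.68 (log2, SE 0.78, adjusted p = 0.809). It turned sign with library weights and without the 2 C57 normoxia libraries low in rod genes, as given in the section on processing.

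Nuclear genes of oxidative phosphorylation, the mitochondrial respiratory chain and ATP synthase, had 73 of 74 members above 0 and a median of 0.31, from 0.17 in C57 and 0.50 in BALBc. The median interaction over all genes was 0.00062. Of the 74, 12 were at the unadjusted level, all positive, against 4.75% of all genes. Ndufa1, a complex I subunit, is an example. The C57 values of Ndufa1 were 65.1, 71.1, 115 and 97.1 FPKM in normoxia and 88.1, 91.9, 111 and 98.4 in hyperoxia, and the BALBc values 99.5, 79.2, 67.7 and 76 and 113, 167, 189.6 and 142. BALBc hyperoxia was above BALBc normoxia throughout, and the interaction was 0.72 (log2, SE 0.27, adjusted p = 0.428). Ndufb2, another complex I subunit, lay lower in C57 hyperoxia (4.17, 3.25, 5.08 and 5.54 FPKM) than in C57 normoxia (7.15, 6.32, 6.46 and 6.16). The list median was 0.285 with a sex covariate and ran from 0.131 to 0.619 over all other settings. The count of 12 depended on the libraries and covariates. It was 1 with a sex covariate and 1 without BALBc hyperoxia replicates 2 and 3. Without the lens-rich libraries it was 6, and without the low-rod C57 normoxia libraries 54. Leaving out single libraries gave 33 without C57 normoxia replicate 2 or BALBc hyperoxia replicate 1, and 3 without C57 normoxia replicate 3, C57 hyperoxia replicate 2 or BALBc hyperoxia replicate 2 or 3. The count moved by over 1.5 times for every library except C57 normoxia replicate 1, C57 hyperoxia replicate 3 and BALBc normoxia replicate 2. BALBc hyperoxia replicates 2 and 3 had the highest summed FPKM of all libraries. The 13 genes of the mitochondrial genome had 0 at the unadjusted level and a median of 0.00.

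Ribosomal protein genes had 6 of 79 at the unadjusted level, all positive, or 7.59% against 4.75% of all genes, a share near that background. Their median was 0.25. The count was 2 with a sex covariate and 47 without the low-rod libraries. It was 16 without C57 normoxia replicate 2, 12 without BALBc hyperoxia replicate 1 and 3 without BALBc hyperoxia replicate 3, and between 4 and 7 without any other single library. Many have near-identical copies, so single values are uncertain. Rps15a rose in BALBc by 0.56 (log2, SE 0.10, adjusted p = 0.0374). Gene length went with the interaction across genes: Spearman rho between gene length and interaction was -0.103 across 14943 genes, and the fifth of shortest genes had a median interaction of 0.05 against -0.04 in the fifth of longest. The part of gene length in the values of these lists was not tested beyond the length-corrected fit given in the section on processing. Microglia genes had 14 of 14 above 0, with 3 at the unadjusted level (Lyz2, C1qb and Fcrls), against 4.75% of all genes. The count was 3 with a sex covariate, 7 without BALBc hyperoxia replicate 4, and 1 without the low-rod libraries or without BALBc hyperoxia replicates 2 and 3. C1qb, a complement component, was 6.19, 8.74, 6.52 and 6.52 FPKM in BALBc normoxia and 10.7, 10.2, 13.1 and 9.28 in BALBc hyperoxia, which do not overlap, with an interaction of 0.69 (log2, SE 0.24, adjusted p = 0.401).

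**Figure D4:**
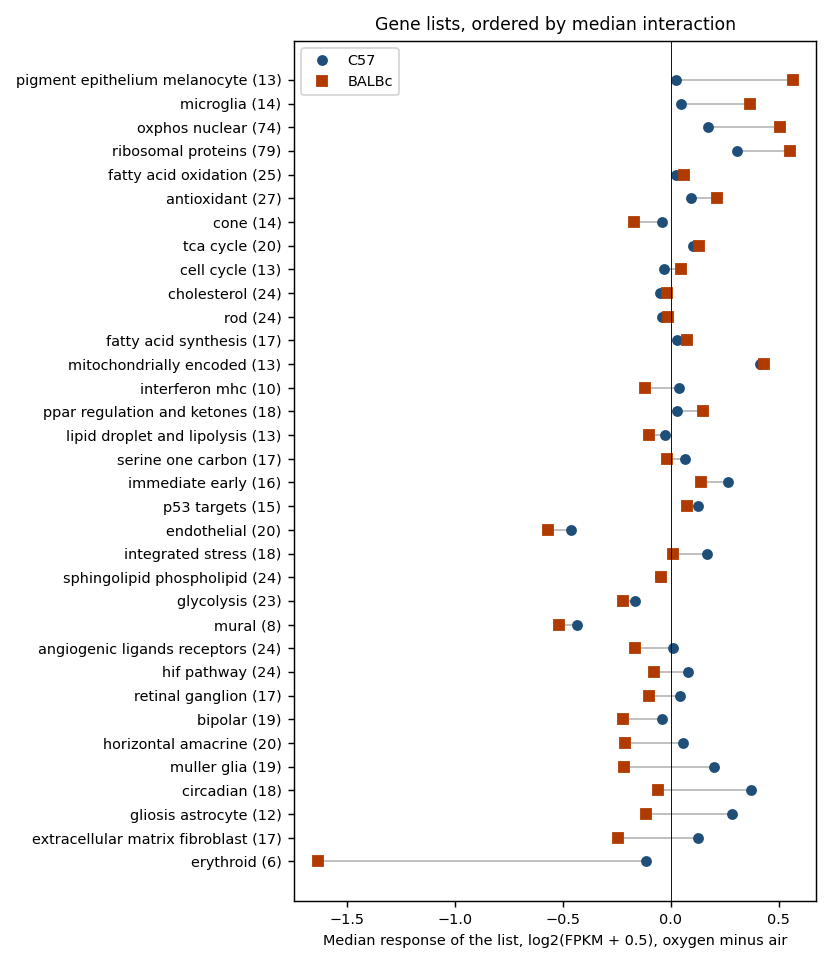
Median response of each gene list in C57 (circles) and BALBc (squares), as log2(FPKM + 0.5) in hyperoxia minus normoxia, ordered by median interaction, with the number of tested genes in parentheses; the sex and lens lists are not drawn. Endothelial genes are low in both strains (-0.46 and -0.57), while clock, gliosis and Müller glia genes are above 0 in C57 and below 0 in BALBc.

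Vessel genes had medians below 0 in both strains. The 20 endothelial genes had a median of -0.46 in C57 and -0.57 in BALBc, and a median interaction of -0.06. Of the 20, 3 were at the unadjusted level, all negative (Flt1, Sox18 and Eng), against 4.81% of all genes. The count was 1 with a sex covariate, and with single libraries left out 1 to 5. The 5 came without BALBc hyperoxia replicate 2. The 1 came without C57 normoxia replicate 1 or 3, C57 hyperoxia replicate 2 or 3, BALBc normoxia replicate 1 or 2, or BALBc hyperoxia replicate 4. Cldn5, the tight junction protein of retinal capillaries, was apart in both strains in the same direction. Normoxia and hyperoxia FPKM of Cldn5 were 30.4, 20.8, 19.7 and 19.7 and then 12.6, 11.6, 14.4 and 12.4 in C57, and 12.3, 14.7, 12.6 and 10.6 and then 2.89, 7.43, 6.6 and 2.53 in BALBc. It fell in BALBc, with a change of -1.40 (log2, SE 0.26, adjusted p = 0.04), its C57 difference was -0.78 (log2, SE 0.26, adjusted p = 0.193), and the interaction was -0.62 (log2, SE 0.36, adjusted p = 0.609). Sox18, an endothelial transcription factor, changed in BALBc by -1.30 (log2, SE 0.21, adjusted p = 0.0271), and Eng, a TGF-beta co-receptor, by -1.02 (log2, SE 0.19, adjusted p = 0.0398). Kdr, the main VEGF receptor, had an interaction of -0.01 (log2, SE 0.27, adjusted p = 0.994), a value near 0 whose sign turned under 13 of 36 other settings. Vegfa, its ligand, was 37.8, 45.6, 22.7 and 24.8 FPKM in C57 normoxia, 27.1, 33.7, 40.8 and 28.5 in C57 hyperoxia, 26.3, 24.2, 26.7 and 29.8 in BALBc normoxia and 29.8, 9.44, 14.1 and 21.7 in BALBc hyperoxia. These groups overlapped in both strains, and the interaction was -0.65 (log2, SE 0.40, adjusted p = 0.634). Of 24 angiogenic ligands and receptors 1 was positive at the unadjusted level, Vash1, and 4 negative, against 4.75% and 4.81% of all genes. Among the negative ones were Apln (-1.16) and Ndp, which encodes norrin (-0.71). The negative count was 2 with a sex covariate, 2 without C57 hyperoxia replicate 1 or 2, and 7 without BALBc hyperoxia replicate 1. None of 8 mural cell genes was at that level.

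Among genes of the hypoxia-inducible factor pathway, 1 of 24 was at the unadjusted level, Ak4, a mitochondrial adenylate kinase. That share, 4.17%, was near the 4.81% of all genes that were negative, so it marks nothing about the pathway. The negative count was 4 without C57 hyperoxia replicate 4 or BALBc hyperoxia replicate 1 or 3, and 2 without C57 hyperoxia replicate 1 or BALBc normoxia replicate 1. For Ak4, the C57 libraries held 3.21, 3.64, 3.95 and 4.54 FPKM in normoxia and 3.77, 4.24, 3.98 and 2.55 in hyperoxia, and the BALBc libraries 3.09, 3.06, 3.16 and 3.26 and 1.98, 1.41, 1.69 and 1.41. It changed in BALBc by -0.79 (log2, SE 0.14, adjusted p = 0.0374), its C57 difference was -0.08 (log2, SE 0.14, adjusted p = 0.855), and the interaction was -0.71 (log2, SE 0.20, adjusted p = 0.307). Of 23 glycolysis genes 3 were at that level, all negative: Slc16a3, Aldoc and Pfkp, against 4.81% of all genes. The glycolysis count was 0 with a sex covariate, and without the low-rod libraries it was 4 positive and 1 negative, with the median turned from -0.08 to 0.07. It was 0 without BALBc hyperoxia replicate 4 and 1 without C57 normoxia replicate 1, C57 hyperoxia replicate 1 or 2, or BALBc normoxia replicate 4. Slc16a3, the lactate exporter MCT4, was apart in both strains in the same direction. Slc16a3 FPKM was 4.52, 5.15, 6.73 and 5.63 in C57 normoxia and 4.08, 4.4, 3.92 and 3.43 in C57 hyperoxia, against 4.23, 3.86, 4.97 and 6.02 in BALBc normoxia and 2.62, 1.92, 2.55 and 1.58 in BALBc hyperoxia. It changed in BALBc by -0.99 (log2, SE 0.16, adjusted p = 0.0242) and by -0.42 (log2, SE 0.16, adjusted p = 0.239) in C57, with an interaction of -0.56 (log2, SE 0.22, adjusted p = 0.458).

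Lipid genes, the subject of the study's title, gave shares at the unadjusted level that differed between lists. Over all genes 4.75% were positive and 4.81% negative at that level. Fatty acid oxidation, at 4% each way, and sphingolipids and phospholipids, at 4.17% each way, were near those shares. Cholesterol genes, at 4.17% positive, were too. Higher shares, on 1 to 3 genes each, came from PPAR and ketone body genes (16.7% positive) and lipid droplet and lipolysis genes (15.4% negative). Fatty acid synthesis had 5.88% positive and 11.8% negative. The lipid droplet and lipolysis count stayed 2 with any single library left out. Fatty acid oxidation had 1 positive (Hsd17b4, 0.33) and 1 negative (Acads, -0.64) of 25, and Cpt1a, which admits long-chain fatty acids to mitochondria, had an interaction of -0.08 (log2, SE 0.23, adjusted p = 0.933). Lipid droplet and lipolysis genes had 2 of 13, Pnpla2 and Dgat2, both negative. Dgat2, which makes triglyceride, was 4.38, 3.57, 3.76 and 3.89 FPKM in C57 normoxia and 7.14, 7.53, 4.88 and 4.71 in C57 hyperoxia, apart, and 3.11, 2.97, 3.78 and 2.83 and 2.71, 3.15, 3.57 and 2.16 in BALBc, with an interaction of -0.68 (log2, SE 0.22, adjusted p = 0.379). Of 18 PPAR and ketone body genes 3 were positive: Acat1 (0.79), Oxct1 (0.90) and Fabp7 (0.93). Oxct1, which lets tissues use ketone bodies, shows how libraries of one group could differ. In C57, Oxct1 was at 82.4, 75.3, 89.1 and 87.3 FPKM in normoxia and 40.4, 41.5, 80.2 and 82.5 in hyperoxia, and in BALBc at 74.3, 75.1, 79.2 and 65.6 and 86.5, 103, 89.4 and 102. C57 hyperoxia replicates 1 and 2 were low and replicates 3 and 4 were within the normoxia range. Ppara, the fatty-acid-sensing receptor, gave no usable interaction, since it was at 2.97 to 6.18 FPKM over the 8 C57 libraries but rested on 1 to 6 reads per library in BALBc. Fatty acid synthesis had 1 positive and 2 negative of 17, cholesterol 1 positive of 24, and sphingolipids and phospholipids 1 each way of 24. With a sex covariate fatty acid synthesis and cholesterol had 0, sphingolipids and phospholipids 1 negative, fatty acid oxidation 2 each way, and PPAR and ketone body genes 2 positive and 1 negative. With single libraries left out the positive count of fatty acid oxidation ran from 1 to 3 and the negative count of fatty acid synthesis from 0 to 3.

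Stress and related lists gave shares at the unadjusted level that differed between lists, each on few genes. Sesn2, a stress-induced inhibitor of mTORC1, rose in C57 by 0.63 (log2, SE 0.12, adjusted p = 0.0454). The C57 values of Sesn2 were 5.58, 5.39, 5.56 and 5.93 FPKM in normoxia and 10.9, 9.81, 7.73 and 7.82 in hyperoxia, and the BALBc values 5.64, 4.6, 5.06 and 5.95 and 6.4, 4.71, 5.63 and 5.05. The C57 groups were apart, the BALBc groups overlapped, and the interaction was -0.60 (log2, SE 0.17, adjusted p = 0.307). Ssbp4, a single-stranded DNA binding protein, was apart in both strains in the same direction. Normoxia and hyperoxia FPKM of Ssbp4 were 20.2, 16.5, 18.8 and 16.4 and then 41, 39.3, 26.6 and 31 in C57, and 13.7, 14.5, 12.9 and 12.5 and then 20.8, 19.6, 17.8 and 19 in BALBc. It rose in C57 by 0.90 (log2, SE 0.12, adjusted p = 0.0234), with a BALBc difference of 0.51 (log2, SE 0.12, adjusted p = 0.0883) and an interaction of -0.39 (log2, SE 0.17, adjusted p = 0.487). Gstm1, a glutathione transferase, was 5.43, 5.56, 4.98 and 5.65 FPKM in C57 normoxia and 9.08, 8.92, 12.1 and 9.66 in C57 hyperoxia, with an interaction of -0.86 (log2, SE 0.29, adjusted p = 0.38). Hspa5, Gpx1 and Txn2, also named, had positive interactions of 0.84, 0.51 and 0.47. The antioxidant list had a median interaction of 0.12. Over all genes 4.75% were positive and 4.81% negative at the unadjusted level. Serine and one-carbon genes and cell cycle genes had 0 of 17 and 0 of 13 at that level. The counts were 4 positive and 2 negative of 20 tricarboxylic acid cycle genes (20% and 10%) and 2 and 1 of 27 antioxidant genes (7.41% and 3.7%). They were 1 and 2 of 16 immediate early genes (6.25% and 12.5%) and 1 and 2 of 18 integrated stress genes (5.56% and 11.1%). Last, they were 0 and 1 of 15 p53 targets (6.67% negative) and 0 and 2 of 10 interferon and MHC genes (20% negative). With a sex covariate the tricarboxylic acid cycle had 2 and 1, immediate early genes 0 and 1, integrated stress genes 1 and 1, p53 targets 0 and 0, and interferon and MHC genes 1 and 1. With single libraries left out the positive antioxidant count ran from 1 to 5, and the tricarboxylic acid cycle counts from 2 to 5 and 0 to 2.

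**Figure D5:**
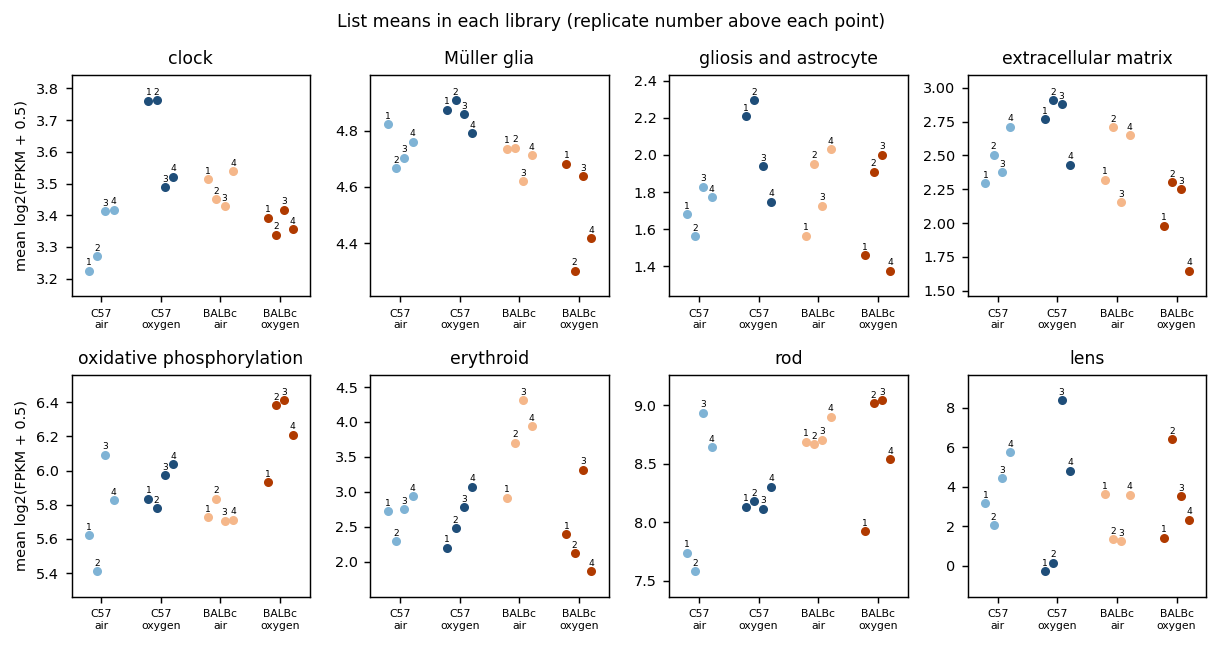
Mean log2(FPKM + 0.5) of 8 gene lists in each library, with the replicate number above each point. C57 hyperoxia replicates 1 and 2 are highest for clock genes (3.76 and 3.76) and lowest for lens genes (-0.25 and 0.17), and BALBc hyperoxia replicates 2 and 3 are highest for oxidative phosphorylation genes.

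Lens genes had a median interaction of 1.59 with 0 of 19 at the unadjusted level, and pigment epithelium and melanocyte genes 0.42 with 0 of 13. Lens and clock means differed within C57 hyperoxia: C57 hyperoxia replicates 1 and 2, low in lens genes, were those highest in clock genes, Il33, Glul and Dkk3. The part of lens or rod content in those values was not tested beyond the covariate and left-out-library fits.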

How the data were processed

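Retina RNA was sequenced in 16 libraries, 4 in each of 4 groups taken from the labels. Extraction used TRIzol and library preparation NEBNext Ultra II, per the labels' protocols. The submitters' processing notes name HISAT2 2.0.5, featureCounts 1.5.0-p3 and the builds GRCm38 and mm10; whether counting used strand is not given in the sources used here. The authors deposited FPKM values for 54532 genes. Reads were recovered from the steps of the FPKM values: 97.1% to 97.5% of values up to 1000 reads came out whole, within 0.01.

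Values were analysed as log2(FPKM + 0.5), a scale that understates changes of low genes. One 4-group model was fitted to 14953 genes with limma 3.58.1 in R 4.3.3 (moderated, mean-variance trend, two-sided). Benjamini-Hochberg adjustment ran over every gene in the fit, genes under 0.05 were called, and the fit was tested on simulated data. The simulated libraries of a group did not differ in rod, lens or sex genes, so that test does not cover such differences. In the text, the unadjusted level is an unadjusted p under 0.05, and groups are apart where no library of one overlaps the other. The gene lists and the genes described were chosen with earlier results of these data known.

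Named genes included the 12 of smallest interaction p in each direction and 6 with opposite non-overlapping groups. These were protein-coding, with a mean of at least 2 FPKM. Named without that filter were up to 3 tested genes per list and a set always named. In addition, 8 more were added after their values were seen. Not every named gene is described, and some are not reported here. Genes matched GENCODE release 21 by identifier, and promoters came from RefSeq (GRCm38.p6). Alternatives were other pseudocounts, filters, scalings, moderation, covariates, weights, a replicate block, voom on the recovered reads and leaving out libraries.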

Additional observations from a re-analysis of the deposited data

Results flagged for a closer look

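Single libraries stood far from the other 3 of their group in 18 of 456 group-by-gene sets examined over 114 of the named genes, or 3.95%. Chance alone flags about 1 in 20 groups of this size. In BALBc normoxia, replicate 2 was low for Cdan1 (4.3 FPKM against 4.85 for the nearest library) and Junb (8.01 against 9.2) and high for C1qb (8.74 against 6.52). Replicate 3 of that group was low for Apln, at 1.91 against 2.88. Replicate 4 was low for Cog5 (8.18 against 9.61) and high for Glul (321 against 298) and Vtn (245 against 188), the last encoding vitronectin.

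In BALBc hyperoxia, replicate 3 was high for Hba-a2, at 3.81 FPKM against 0.721, and replicate 2 for the crystallin gene Crygb, at 384 against 42.5. Replicate 1 was low for Acat1, at 39.7 against 56.6, and was the library of its group with the hairpin gene Mir210, at 0.874 against 0. Replicate 4 was high for Fabp7, at 53.4 against 28.7. In C57 hyperoxia, replicate 3 was high for Crygb, at 1202 against 107. In C57 normoxia, replicate 1 was high for Cldn5 (30.4 against 20.8), Lyz2 (6.66 against 4.41) and Insig2 (11.8 against 11), replicate 3 for Hba-a2 (2.39 against 1.55) and replicate 4 for Dkk3 (133 against 108).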

How the results depend on the processing

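Of 36 other settings, 31 were planned and 5 (low-rod, lens-rich or highest-FPKM libraries left out, both covariates together, protein-coding genes only) were chosen after seeing the data. The interaction count stayed 0 except with library weights (3473 genes, weights 0.33 to 3.69), a rod covariate (7), the lens-rich libraries left out (370) and single libraries left out (0 to 1, the 1 being Hba-a2 without BALBc hyperoxia replicate 3). At the unadjusted level, TPM scaling gave 433 positive and 717 negative genes, a filter of 5 FPKM 520 and 346, and leaving out the low-rod libraries 1401 and 865. With a replicate block the interaction count was 0, the C57 count 1 and the BALBc count 22. The replicate numbers are not stated to pair the libraries. Deviations of same-numbered libraries correlated at -0.501 to 0.401 and matched best in 4 of 24 cases. Between C57 normoxia and hyperoxia they correlated at 0.086 to 0.207, against -0.194 to 0.187 for libraries of different number. These ranges overlap, so they do not settle whether the numbers pair libraries.

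The C57 count of 50 became 32 with a pseudocount of 0.1, 9 with no filter, 29 with a filter of 5 FPKM, 99 with quantile scaling, 16 with no trend, 2798 with library weights, 0 with a sex covariate, 471 with a rod covariate and 23 with the length trend removed. It was 8, 1047 and 21 without the low-rod, lens-rich and highest-FPKM libraries, 0 with both covariates, and 0 to 85 with single libraries left out; it moved by over 1.5 times for each but C57 hyperoxia replicate 4 and BALBc hyperoxia replicates 1 and 4. The BALBc count of 24 became 8 with no filter, 108 with TPM scaling, 64 with quantile scaling, 2457 with library weights, 39 and 975 with the sex and rod covariates, 1023 with both, 126 and 3 without the low-rod and lens-rich libraries, and 47 for protein-coding genes. Single libraries left out gave 1 to 284, moving it by over 1.5 times for C57 normoxia replicates 2 to 4, C57 hyperoxia replicates 1 and 3, BALBc normoxia replicates 1, 3 and 4, and BALBc hyperoxia replicates 1 and 4. The causes were not tested.

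Of 114 named genes, 104 kept the sign of their interaction under every setting that gave a value, and 10 reversed under at least 1. With library weights Gfap was 0.16, Gnat1 0.68 and Cpt1a 0.14. Gfap was 0.14 with a sex covariate and 0.12 with both. Without the low-rod libraries Gnat1 was 0.44, Cpt1a 0.28 and Ppara 0.25. Without the lens-rich libraries Vegfa was 0.11, Ttr -0.89, Sncg -0.28, mt-Co1 -0.36, Vtn -0.69 and Kdr 0.47. Without the highest-FPKM libraries Ttr was -0.64, Sncg -0.37, mt-Co1 -0.43, Vtn -0.56 and Kdr 0.30. TPM scaling gave Sncg -0.0013, mt-Co1 -0.035 and Vtn -0.035, and quantile scaling Ppara 0.039, Sncg -0.045, mt-Co1 -0.18, Vtn -0.066 and Kdr 0.015. Median scaling gave Kdr 0.011, and the length-corrected fit mt-Co1 -0.0045 and Kdr 0.026. With single libraries left out Kdr ran from -0.23 to 0.14, Vtn from -0.28 to 0.38, mt-Co1 from -0.14 to 0.30, Sncg from -0.13 to 0.29, Ttr from -0.10 to 0.68, Ppara from -0.26 to 0.061 and Cpt1a from -0.20 to 0.061. Values on few reads are uncertain: Ppara had 1 to 6 reads per BALBc library, against 224 to 594 per C57 library.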

Other observations

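Other genes with values of the same kind were chosen after their values were seen. Optc, which encodes opticin, a vitreous protein made by the ciliary body, was 4.97, 11.3, 5.57 and 21.5 FPKM in C57 normoxia, 30.8, 48, 28.3 and 25.4 in C57 hyperoxia, 3.35, 23.4, 3.53 and 28 in BALBc normoxia and 0.859, 3.6, 3.41 and 1.26 in BALBc hyperoxia. Its C57 groups were apart, BALBc normoxia spread widely, and the interaction was -3.78 (log2, SE 0.91, adjusted p = 0.25). Col9a2, a chain of type IX collagen, also found in vitreous, was 5.87, 8.99, 4.48 and 8.06 FPKM in C57 normoxia and 14.2, 14.5, 11.6 and 9.88 in C57 hyperoxia, against 5.4, 6.92, 4.36 and 8.63 and 6.07, 2.69, 2.93 and 3.71 in BALBc, with an interaction of -1.53 (log2, SE 0.36, adjusted p = 0.25). The hairpin gene of miR-210, a microRNA known to be induced by hypoxia, had 2, 0, 2 and 0 recovered reads in C57 normoxia, 10, 4, 9 and 16 in C57 hyperoxia, 4, 3, 0 and 0 in BALBc normoxia and 2, 0, 0 and 0 in BALBc hyperoxia. These counts are for Mir210 in long-RNA libraries and do not measure the mature microRNA.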
